A study of Mus musculus with 16 samples.

Results

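The comparison set the histone H3 lysine 4 trimethylation (H3K4me3) peaks of late catagen hair follicle stem cells, the LC-HFSCs, beside those of the other basal skin cells of the same mice, the non-LC-HFSCs. The peaks were taken as all entries of the 2 H3K4me3 lists of that stage, 14718 in LC-HFSCs and 18996 in non-LC-HFSCs, which make 33714 of the 219698 peaks in the 12 lists analysed here. A peak was called shared when it had at least 1 bp in common with a peak of the other list and one-sided otherwise. A gene was called one-sided when 1 population had a peak in the 3000 bp on either side of the annotated start and the other had none.

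Both populations were sorted by flow cytometry from skin of wild-type mice of a CD1 x FVB cross. The mice were labelled male, although the methods of the study name both sexes for most of its work. They were taken at PD38-44, which the study staged as late catagen, near the end of follicle regression. LC-HFSCs were CD34+ / α6-integrin+ and non-LC-HFSCs were CD34- / α6-integrin+, so that the second gate held every α6-integrin+ cell without surface CD34 and was not a single cell type. Nuclei from 15-20 mice were pooled, digested with micrococcal nuclease to single nucleosomes and immunoprecipitated with 1 H3K4me3 antibody. Early anagen cells of the same cross and the same gates, taken at PD22-25 and called EA-HFSCs and non-EA-HFSCs, were used only as a further readout. The authors pooled the reads of independent experiments before calling peaks, so each population had 1 list and the differences between them could be described but not tested. In pooled cells, a mark carried by fewer cells and a weaker mark in each cell cannot be told apart.

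H3K4me3 is laid down at the starts of genes that are transcribed or poised for transcription, mainly over promoters rich in CpG dinucleotides, and its domain tends to reach further into the gene where a gene is strongly expressed or defines the cell type. At developmental genes the same promoters can carry H3K27me3, the mark of Polycomb repression. The CD34-expressing bulge cells at the base of the permanent follicle are the reservoir from which the follicle regrows, and in late catagen they are quiescent, while the cells outside the gate build and renew the epidermis, the upper follicle and the sebaceous gland.

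The stretches that follow were chosen to show what the promoters of one-sided genes looked like. Each is the 200 bases just before the annotated start of the gene on mm9, read 5′ to 3′ on the strand of the gene, with every CG dinucleotide in capitals. The genes with a peak in LC-HFSCs only were Lhx2 (chr2:38194601-38194800, plus strand), Cd34 (chr1:196764815-196765014, plus strand), Il31ra (chr13:113370871-113371070, minus strand) and S100a4 (chr3:90407492-90407691, plus strand), and none of the stretches overlapped an annotated exon.
Lhx2: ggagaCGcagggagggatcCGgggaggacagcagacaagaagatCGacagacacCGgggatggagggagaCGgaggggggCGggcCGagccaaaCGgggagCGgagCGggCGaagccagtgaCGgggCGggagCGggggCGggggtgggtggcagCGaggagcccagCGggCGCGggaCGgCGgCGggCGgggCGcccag
Cd34: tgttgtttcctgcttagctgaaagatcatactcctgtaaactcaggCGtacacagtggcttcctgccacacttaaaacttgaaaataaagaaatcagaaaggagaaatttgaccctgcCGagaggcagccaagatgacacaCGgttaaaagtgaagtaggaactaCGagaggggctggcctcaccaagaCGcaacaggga
Il31ra: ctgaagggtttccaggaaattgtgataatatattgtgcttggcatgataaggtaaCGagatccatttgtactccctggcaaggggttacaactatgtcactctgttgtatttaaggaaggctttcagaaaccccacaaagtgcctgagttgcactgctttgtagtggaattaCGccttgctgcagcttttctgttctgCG
S100a4: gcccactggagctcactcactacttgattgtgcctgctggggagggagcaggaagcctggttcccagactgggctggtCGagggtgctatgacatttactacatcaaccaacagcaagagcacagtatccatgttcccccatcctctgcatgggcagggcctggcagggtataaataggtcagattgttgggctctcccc

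The genes with a peak in non-LC-HFSCs only were Alad (chr4:62180953-62181152, minus strand), Rarg (chr15:102087949-102088148, minus strand) and Ly6a (chr15:74828065-74828264, minus strand).
Alad: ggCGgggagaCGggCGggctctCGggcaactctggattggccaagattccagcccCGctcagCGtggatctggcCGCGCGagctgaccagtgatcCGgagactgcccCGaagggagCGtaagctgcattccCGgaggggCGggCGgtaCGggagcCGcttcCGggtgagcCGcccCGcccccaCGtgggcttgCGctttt
Rarg: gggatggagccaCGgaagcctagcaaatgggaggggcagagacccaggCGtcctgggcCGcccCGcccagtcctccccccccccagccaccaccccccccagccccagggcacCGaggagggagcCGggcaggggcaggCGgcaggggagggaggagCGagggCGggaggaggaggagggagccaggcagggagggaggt
Ly6a: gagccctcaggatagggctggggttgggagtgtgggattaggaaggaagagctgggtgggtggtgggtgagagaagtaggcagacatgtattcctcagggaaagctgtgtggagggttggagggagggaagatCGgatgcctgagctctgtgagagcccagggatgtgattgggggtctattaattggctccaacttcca
Promoters dense in CG and promoters nearly without it stood on both sides. The Lhx2 stretch held 24 CG dinucleotides and that of Alad held 22, whereas those of S100a4 and Ly6a held 1 each.

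The lists differed in scale before any gene was considered. The score of a peak is 10 times the negative log10 of its p-value against IgG, and the median score was 226 in LC-HFSCs and 713 in non-LC-HFSCs. At the 13240 loci where exactly 1 peak of each list met, the LC-HFSC score was the lower one at 95.9%. The LC-HFSC lists of the other marks were short as well, with 1909 peaks for H3K27me3 against 15273 in non-LC-HFSCs and 1414 against 18236 for H3K9me3. The number of reads behind a peak is not part of the lists, so its share in these differences was not tested. The paper states that LC-HFSCs had more reads than EA-HFSCs and gives no separate figure for non-LC-HFSCs. Its figure for LC-HFSCs lies at the upper end of the range it gives for all samples other than IgG. Scores below are given as the percentile of a peak within its own list, the share of the list with a lower score. Peaks tied on a score share a percentile, as at the score of 3100 in non-LC-HFSCs, which stood at percentile 94.7.

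LC-HFSCs had fewer but wider peaks. The ratio of peak numbers was 0.775 (95% Wilson interval 0.758 to 0.792, which like all intervals here covers counting error only), while both lists covered almost the same length, 37.7 Mb in LC-HFSCs and 37.5 Mb in non-LC-HFSCs. The median peak was 2308 bp wide in LC-HFSCs, with the 10th and 90th percentiles at 1377 and 3919 bp, and 1794 bp wide in non-LC-HFSCs, with the percentiles at 807 and 3310 bp. Of the covered length, 31.3 Mb lay in both lists, which was 83.2% of the LC-HFSC length and 83.6% of the non-LC-HFSC length.

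Nearly every LC-HFSC peak had a partner, but a sizeable remainder of the non-LC-HFSC list did not. A non-LC-HFSC peak overlapped 13940 LC-HFSC peaks, or 94.7% (94.3 to 95.1), and an LC-HFSC peak overlapped 14438 non-LC-HFSC peaks, or 76.0% (75.4 to 76.6). This left 778 one-sided peaks in LC-HFSCs, covering 1.28 Mb with a median width of 1459 bp, and 4558 in non-LC-HFSCs, covering 4.71 Mb with a median width of 932 bp. Some of the difference in number came from single LC-HFSC peaks that spanned several partners. In LC-HFSCs 535 peaks overlapped 2 non-LC-HFSC peaks, 21 overlapped 3 and 1 overlapped 5, whereas 83 non-LC-HFSC peaks overlapped 2 LC-HFSC peaks.

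**Figure D1:**
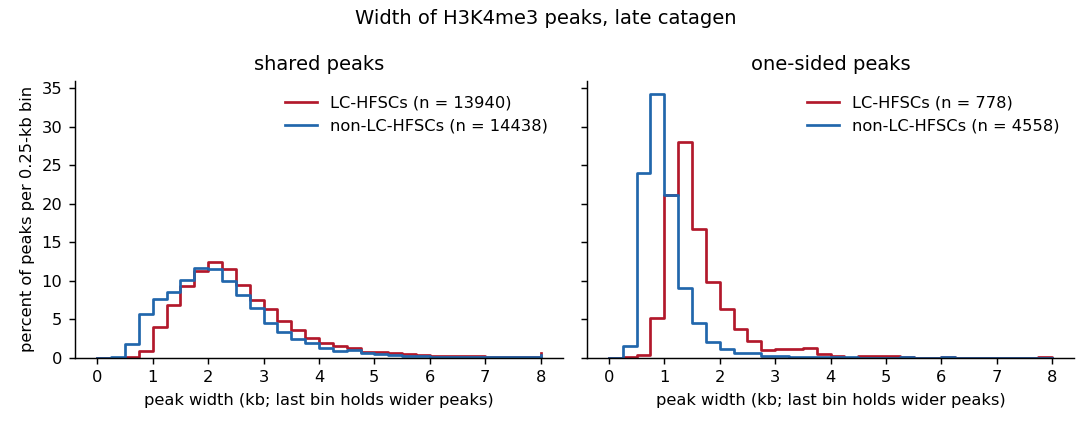
Width of the H3K4me3 peaks of late catagen in bins of 0.25 kb, as percent of the shared peaks (left) and of the one-sided peaks (right) of LC-HFSCs and non-LC-HFSCs. One-sided peaks were narrower than shared ones in both lists, with medians of 1459 and 932 bp against 2356 and 2090 bp, and in each panel the LC-HFSC curve lies to the right.

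The one-sided peaks were mostly weak. Scores under 100 were found for 82.1% of the one-sided LC-HFSC peaks and 59.1% of the one-sided non-LC-HFSC peaks, against 16.6% and 6.21% of the shared peaks. When each list was ordered by score and cut into 10 equal parts, 70.2% of LC-HFSC peaks and 20.0% of non-LC-HFSC peaks in the lowest part had a partner. In the highest part these shares were 99.5% and 99.8%. A few one-sided peaks were nonetheless among the strongest of their list, with a highest score of 1735 in LC-HFSCs, at Cd34, and of 3100 in non-LC-HFSCs.

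**Figure D2:**
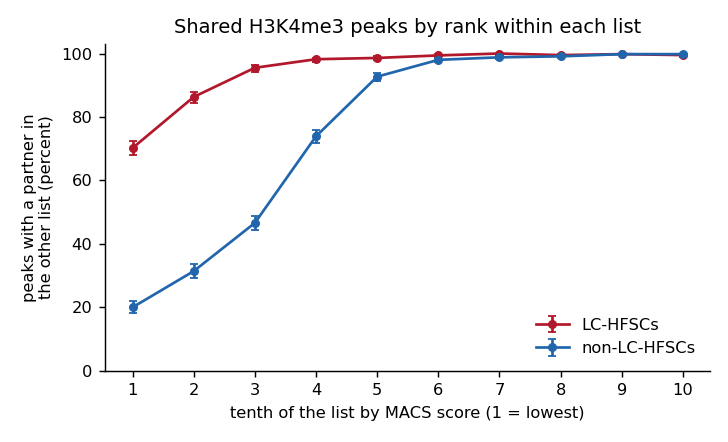
Percent of peaks with a partner in the other late catagen list, for 10 equal parts of each list ordered by score, with 95% Wilson intervals as bars. The non-LC-HFSC curve starts at 20.0% and reaches 92.7% in the 5th part, whereas the LC-HFSC curve starts at 70.2%.

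Where exactly 1 peak of each list met, the LC-HFSC peak was the wider one at 9899 of 13240 loci (74.8%). The median ratio of LC-HFSC to non-LC-HFSC width was 1.09, with the 10th and 90th percentiles at 0.915 and 1.45. The LC-HFSC peak was at least 1.5 times as wide at 1095 loci and the non-LC-HFSC peak at 68. At 49.6% of the loci the LC-HFSC peak reached further on both sides. The median ratio was 1.07 at the 4750 loci in promoters and 1.14 at the 1811 intergenic loci.

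Most of the widest peaks of both lists lay over genes of transcription factors. The widest LC-HFSC peak, 25745 bp, ran across Hoxa3 to Hoxa9, where non-LC-HFSCs had 5 peaks summing to 23489 bp. The next were 17762 bp over Irx2, 17482 bp over the Gata3 locus and 17479 bp over Tcfap2a, the gene of AP-2α. In non-LC-HFSCs the widest peaks were 17683 bp over the same Gata3 locus, 16756 bp over Tcfap2a, 14128 bp over Zbtb7b and 13318 bp over the uncharacterised 2010111I01Rik. The LC-HFSC widths at Zbtb7b and 2010111I01Rik were 14541 and 13297 bp, so that these domains and that of Gata3 had nearly the same width in both populations.

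The one-sided peaks lay in other places than the shared ones, and in much the same places in both populations. By the middle of the peak, 35.7% of shared LC-HFSC peaks were in promoters (1000 bp before to 100 bp after a transcript start), 36.5% in introns and 13.6% between genes. For one-sided peaks these shares were 11.5%, 39.0% and 40.5% in LC-HFSCs and 11.1%, 38.7% and 42.1% in non-LC-HFSCs, so that their intervals overlapped in these 3 classes. In 5′ UTRs lay 3.48% (2.40 to 5.01) of the one-sided LC-HFSC peaks and 1.63% (1.30 to 2.04) of the one-sided non-LC-HFSC peaks. Of the one-sided peaks on placed chromosomes, 182 of 776 (23.5%, 20.6 to 26.6) in LC-HFSCs and 1058 of 4553 (23.2%, 22 to 24.5) in non-LC-HFSCs lay within 3000 bp of the start of a protein-coding gene, against 76.2% and 75.7% of the shared peaks. The median distance to the nearest gene start was 22632 bp for one-sided LC-HFSC peaks and 17283 bp for one-sided non-LC-HFSC peaks. Few distal ones sat at another transcript start of a coding gene (11.4% and 11%) or at a noncoding gene (3.20% and 3.72%). On the X chromosome 13.3% of the non-LC-HFSC peaks were one-sided, against 21.2% to 29.4% on the autosomes, and the part of the sex of the mice in this was not tested.

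Their sequence differed from that of shared peaks as well. In the 500 bp around the middle of the peak, the median observed to expected CpG ratio was 0.697 for shared LC-HFSC peaks, 0.384 for one-sided LC-HFSC peaks and 0.379 for one-sided non-LC-HFSC peaks. Windows spaced evenly over the genome had a median of 0.155. CpG-rich windows, defined here by at least 55% GC and a CpG ratio of at least 0.6, made up 55.2% of shared LC-HFSC peaks, 15.9% (13.4 to 18.6) of one-sided LC-HFSC peaks and 14.3% (13.3 to 15.3) of one-sided non-LC-HFSC peaks. Among one-sided peaks near gene starts the shares were 41.2% (34.3 to 48.5) and 37.1% (34.3 to 40.1).

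Short motifs were counted on both strands in the same windows of the distal one-sided peaks. A match describes letters only and does not show binding. The half-site of the NFI factors, TTGGCA, was present in 36.7% (32.9 to 40.7) of the distal one-sided LC-HFSC windows and 30.4% (28.9 to 31.9) of the distal one-sided non-LC-HFSC windows, against 24.4% and 24.6% of the distal shared ones and 22.7% of the genome windows. The GATA motif AGATAA was less frequent in LC-HFSCs, at 19% (16.1 to 22.4), than in non-LC-HFSCs, at 23.5% (22.1 to 24.9). Both shares lay between the 16.4% and 16.5% of the distal shared windows and the 29.8% of the genome windows. The AP-1 motif TGANTCA was found in 17% (14.2 to 20.2) and 18.6% (17.3 to 19.9), against 12.6% and 13.2% of the distal shared windows and 14.4% of the genome windows. TAATTA, the core of many homeodomain sites, was found in 13.1% and 11% of them, against 7.84% and 8.18% of the distal shared windows and 16.7% of the genome windows. TGTGGT of the RUNX factors was found in 26.4% and 28.1%, against 22.8% and 23.4% of the distal shared windows and 30.9% of the genome windows. For CTTTGA of the TCF and LEF factors the shares were 29.6% and 30.0%, against 24.8% and 25.2% and 34.0%. For CCGGAA of the ETS factors they were 10.9% and 13.3%, against 20.8% and 20.0% and 3.93%. Motif frequencies move with base composition, and its part in these shares was not tested.

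The highest-scoring distal one-sided peaks were compact domains as wide as those of many promoters. In LC-HFSCs the leading 1 lay in an intron of Wwp2, a ubiquitin ligase gene (chr8:110067892-110072939, 5048 bp, score 1108 at percentile 99.1). It was 6024 bp wide in EA-HFSCs and was called in neither non-HFSC list. The next lay 6322 bp before the start of Il31ra (chr13:113377192-113381911, 4720 bp, percentile 97.7) and was likewise found in EA-HFSCs, at 4164 bp, and in no non-HFSC list. The remaining 3 lay between genes, 43641 bp from Ranbp6, 59699 bp from Mtx2 and 245897 bp from Hnrnpa3, with widths of 4752, 2280 and 4018 bp. All 5 were found again in EA-HFSCs, and those near Ranbp6 and Mtx2 also in non-EA-HFSCs as peaks of 826 and 966 bp.

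In non-LC-HFSCs the leading distal peak lay 29664 bp from Safb2 (chr17:56691598-56694344, 2747 bp, percentile 91.0). The others lay at an inner transcript start of Ptpn14 and in introns of Nhsl1, Tanc1 and Nfix, with widths of 5349, 3735, 4794 and 6334 bp. These 5 had a peak in both early anagen lists, so that the LC-HFSC list was the only 1 of the 4 without it. Tanc1 was 3437 bp wide in EA-HFSCs and 6017 bp in non-EA-HFSCs, and the Nfix site was part of a domain of 28239 bp in EA-HFSCs.

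The 2 early anagen lists were not used to define one-sided peaks. Of the 778 LC-HFSC peaks without a non-LC-HFSC partner, 36.9% (33.6 to 40.3) overlapped a peak in EA-HFSCs and none in non-EA-HFSCs, 7.07% (5.47 to 9.09) the reverse, 47.0% both and 9.00% neither. Of the 4558 peaks of non-LC-HFSCs without a partner, 25.4% overlapped a peak in non-EA-HFSCs alone, 5.31% in EA-HFSCs alone, 54.3% both and 15.1% neither. Among shared peaks of LC-HFSCs, 98.4% overlapped both. For one-sided peaks that differed between the sorted gates in early anagen, the gate was therefore mostly the same as in late catagen, and the largest group on either side was present in both early anagen populations.

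At the level of genes, H3K4me3 was mostly common to both populations. Of 22367 protein-coding genes, 11871 (53.1%) had a peak within 3000 bp of the start in both, 9517 in neither, 181 in LC-HFSCs only (0.809% of all genes) and 798 in non-LC-HFSCs only (3.57% of all genes). For 162 of the 181 and 790 of the 798, the peak also had no partner anywhere, while the rest met a partner that ended outside the window. The highest score at the gene had a median of 86.5 for the LC-HFSC-only genes, with 75 of 181 at 100 or above, and of 122 for the non-LC-HFSC-only genes, with 481 of 798. The nearest peak of the other list was a median of 42187 and 34936 bp away. When the same number of top-scoring peaks was taken from each list, the order of the counts turned, with 452 genes in LC-HFSCs only and 412 in non-LC-HFSCs only. On peaks scoring 100 or more, 1323 genes were non-LC-HFSC-only.

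The gene with the highest-scoring peak in LC-HFSCs only was Cd34, the sialomucin on which the cells were sorted, so the call there is a check of the gate and not a finding. Its peak (chr1:196764312-196770503) was 6192 bp wide, at percentile 99.9 of the LC-HFSC list and 6320 bp wide in EA-HFSCs, and Cd34 had no H3K4me3 peak in either non-HFSC list. An H3K27me3 peak lay at the Cd34 start in both non-HFSC lists and in neither HFSC list. The S100a3, S100a4 and S100a5 genes of EF-hand calcium-binding proteins came next and shared 1 peak (chr3:90405481-90410814, 5334 bp, percentile 96.2). At S100a4 EA-HFSCs had 1 peak of 5390 bp and non-EA-HFSCs had 2 peaks summing to 2245 bp. The stronger of these 2 (chr3:90403549-90404904, 1356 bp) ended before the LC-HFSC peak began.

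The other leading LC-HFSC-only genes were of mixed function. Adcy1, an adenylate cyclase, had a peak of 3421 bp at percentile 91.2 in LC-HFSCs, with 6776 bp in EA-HFSCs and 1575 bp in non-EA-HFSCs. St6galnac5, a sialyltransferase, had 2949 bp at percentile 90.1 and a peak in EA-HFSCs but not in non-EA-HFSCs. Pi15, a peptidase inhibitor, had 3276 bp at percentile 88.7, with 6812 bp in EA-HFSCs and 2826 bp in non-EA-HFSCs. The list was completed by the adhesion gene Cadm3 (3636 bp), the metalloprotease gene Adamts19 (3116 bp) and the netrin receptor gene Unc5c (2668 bp), each wider in EA-HFSCs than in non-EA-HFSCs. At D130062J21Rik and the nucleoside transporter gene Slc29a1 the LC-HFSC peak of 3419 and 6516 bp met a non-LC-HFSC peak outside the window, so that both were one-sided by the window alone. H3K27me3 in non-LC-HFSCs lay at 6 of the 12 leading genes, namely Cd34, Adcy1, St6galnac5, Cadm3, Adamts19 and Unc5c.

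Among the leading non-LC-HFSC-only genes, a block of neighbouring Hox genes from Hoxb8 to Hoxb4, transcription factors of position along the body axis, had peaks in non-LC-HFSCs and none in LC-HFSCs. The summed widths in non-LC-HFSCs were 7903 bp at Hoxb8, 6756 bp at Hoxb7, 5187 bp at Hoxb6, 5352 bp at Hoxb5 and 11571 bp at Hoxb4. In non-EA-HFSCs they lay between 7084 and 15461 bp, and in EA-HFSCs the whole block was covered by 1 peak of 58660 bp with a score of 85.0, at percentile 16. Alad, which encodes an enzyme of haem synthesis, had 6505 bp in non-LC-HFSCs at percentile 94.7, with 11136 bp in EA-HFSCs and 7558 bp in non-EA-HFSCs. Rarg, the gene of retinoic acid receptor γ, had 8164 bp at percentile 93.2, with 10963 bp in EA-HFSCs and 8339 bp in non-EA-HFSCs. The LC-HFSC list was the only 1 of the 4 without a call at these domains. The reads there were not examined here, so a mark that was missing and a wide domain that was not called cannot be told apart.

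Skint1, which keratinocytes and thymic epithelium express and which selects the γδ T cells of the epidermis, had 4440 bp in non-LC-HFSCs and 4739 bp in non-EA-HFSCs and no peak in either HFSC list. Ly6e (2842 bp), Arhgap19 (1831 bp) and Srcin1 (2986 bp) had peaks in the other 3 lists. At A930039A15Rik and Tdrd1 the peak of 3068 and 2755 bp met an LC-HFSC peak outside the window. Runs of at least 3 one-sided genes, with at most 200 kb from each to the next, held 117 of the 798 non-LC-HFSC-only genes in 33 places. Among the 181 LC-HFSC-only genes S100a3 to S100a5 formed the 1 run. More runs are found among more genes, and the 2 counts were not compared. Besides the Hoxb block, runs chosen after their members were seen held the keratins Krt1, Krt77 and Krt79, the interleukin 1 family members Il1f9, Il1f5 and Il1rn, the EGF family ligands Epgn and Ereg with Cxcl2, and Skint8, Skint7 and Skint1.

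The one-sided genes were compared with early anagen in the same way as the peaks. Of the 181 LC-HFSC-only genes, 47 (26.0%, 20.1 to 32.8) had a peak in EA-HFSCs and none in non-EA-HFSCs, 2 the reverse, 129 (71.3%) a peak in both and 3 in neither. Of the 798 non-LC-HFSC-only genes, 99 (12.4%, 10.3 to 14.9) had a peak in non-EA-HFSCs and none in EA-HFSCs, 27 the reverse, 634 (79.4%) both and 38 neither. These shares moved with the choice of peaks. With equally many top-scoring peaks from each list, the EA-HFSC share of LC-HFSC-only genes was 52.0% and the non-EA-HFSC share of non-LC-HFSC-only genes 20.9%, and on peaks scoring 100 or more the latter was 7.48%. Among genes with a peak in both late catagen lists, 0.135% and 0.143% were one-sided in early anagen in these 2 directions.

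H3K27me3 was common at one-sided genes. In non-LC-HFSCs an H3K27me3 peak lay at 97 of the 181 LC-HFSC-only genes (53.6%, 46.3 to 60.7) and at 325 of the 798 non-LC-HFSC-only genes (40.7%, 37.4 to 44.2), against 7.87% of the genes with H3K4me3 in both populations and 11.9% of all genes. In LC-HFSCs, whose H3K27me3 list is short, the shares were 15.5%, 12.4%, 1.68% and 3.39%. Where the gene start was CpG-rich, 66 of 80 LC-HFSC-only genes (82.5%, 72.7 to 89.3) and 212 of 352 non-LC-HFSC-only genes (60.2%, 55 to 65.2) carried the mark in non-LC-HFSCs. At the other gene starts it was 30 of 100 (30.0%, 21.9 to 39.6) and 113 of 446 (25.3%, 21.5 to 29.6). High shares were not limited to one-sided genes, as among CpG-rich starts the mark lay at 515 of 771 genes (66.8%) without H3K4me3 in either population and at 7.80% of those with H3K4me3 in both. H3K9me3 of non-LC-HFSCs lay at 12.2% and 11.8% of the one-sided genes and 16.7% of those with H3K4me3 in both.

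**Figure D3:**
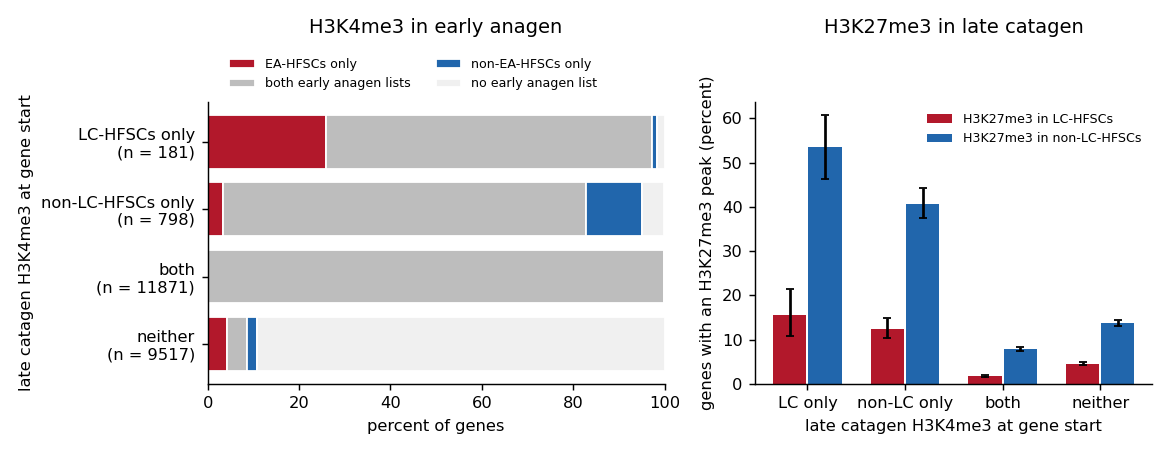
Left, share of genes in each late catagen class that had H3K4me3 at the gene start in EA-HFSCs only, both early anagen lists, non-EA-HFSCs only or neither. Right, share of the same genes with an H3K27me3 peak in LC-HFSCs or non-LC-HFSCs, with 95% Wilson intervals as bars; in non-LC-HFSCs the mark lies at 53.6% of LC-HFSC-only genes and at 7.87% of genes with H3K4me3 in both.

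The sorted populations were set beside genes that mark cell types. These gene lists were chosen with earlier results of these data known, so the comparison is not an independent check of the gates. Of 28 genes of bulge stem cells, 21 had a peak in both populations, 4 in neither, 3 in LC-HFSCs only (10.7%, 3.71 to 27.2, beside 0.809% of all genes) and 0 in non-LC-HFSCs only. The 3 were Il31ra, Lhx2 and the gate gene Cd34. Lhx2, a LIM homeodomain factor that keeps bulge cells in their stem cell state, had a peak of 3429 bp in LC-HFSCs, 6162 bp in EA-HFSCs and 2351 bp in non-EA-HFSCs. It carried H3K27me3 in both non-HFSC lists. Il31ra, a subunit of the interleukin 31 receptor, had peaks of 3354 and 2307 bp in LC-HFSCs and EA-HFSCs and in no non-HFSC list, besides the distal peak described above. Itga6, which encodes the α6-integrin of both gates, was among the genes listed with a peak in neither. The others were Foxp1, Nfib and Runx1. The window was drawn at the outermost annotated start only, and other starts of these genes were not examined. The same limit holds for every gene counted here as having a peak in neither.

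The mirror image was found for 28 genes of epidermis and upper follicle, with 22 in both, 2 in neither, 0 in LC-HFSCs only and 4 in non-LC-HFSCs only (14.3%, 5.70 to 31.5, beside 3.57% of all genes). Ly6a, the gene of the surface protein Sca-1, had 2467 bp in non-LC-HFSCs, 4069 bp in non-EA-HFSCs and 1997 bp in EA-HFSCs. Krt1, the keratin of suprabasal epidermis, had 3462 bp in non-LC-HFSCs, 5982 bp in non-EA-HFSCs and no peak in EA-HFSCs. Krt79 of the upper follicle, with 1582 and 2533 bp, and Epgn, with 833 and 3355 bp, had peaks in these same 2 lists only. Of 10 sebaceous gland genes, 3 were non-LC-HFSC-only (30.0%, 10.8 to 60.3, beside 3.57% of all genes), 4 were in both and 3 in neither. The one-sided ones were Elovl3, Mc5r and Krt79, which also counts in the epidermal list. Those in neither were Awat1, Far2 and Pparg.

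Genes of other cell types were mostly without a peak on either side. Of 26 leukocyte markers, 22 had none, with Ptprc, Cd3e and Csf1r among them, 3 had a peak in both and Sfpi1 had 1 of 1483 bp in non-LC-HFSCs that met an LC-HFSC peak outside the window. Of 16 endothelial markers 11 had none, with Pecam1 and Cdh5 among them, and Flt4 had a peak of 714 bp in non-LC-HFSCs only. Of 14 melanocyte markers 10 had none and Dct had a peak of 1491 bp in LC-HFSCs only, at percentile 11.4. Of 16 fibroblast markers 11 had none, Col1a2 was LC-HFSC-only with 1671 bp and Twist2 non-LC-HFSC-only with 1484 bp. Of 12 Merkel cell and nerve sheath markers 8 had none and Isl1 was non-LC-HFSC-only with 1352 bp. None of the 10 skeletal muscle markers had a peak. No list of this paragraph had more than 1 one-sided gene per direction. Over all genes the shares were 0.809% for LC-HFSCs only and 3.57% for non-LC-HFSCs only. The part of such cells in the differences was not tested.

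The study had defined from microarrays of sorted cells the genes upregulated in the bulge at all stages (GUB) and those downregulated in the bulge (GDB). The arrays came from the same gates, so the direction of these lists is not independent of the sort. Of 221 GUB genes, 21 (9.50%, 6.30 to 14.1) were LC-HFSC-only, beside 0.809% of all genes, 1 was non-LC-HFSC-only, 176 had a peak in both and 23 in neither. Of 99 GDB genes, 19 (19.2%, 12.6 to 28.0) were non-LC-HFSC-only, beside 3.57% of all genes, 0 were LC-HFSC-only, 72 had a peak in both and 8 in neither. With equally many top-scoring peaks from each list, 37 GUB genes were LC-HFSC-only, and on peaks scoring 100 or more, 31 GDB genes were non-LC-HFSC-only. The peaks at these 21 GUB and 19 GDB genes had no partner anywhere in the other list. In early anagen 7 of the 21 were EA-HFSC-only, beside 26.0% of all LC-HFSC-only genes. Of the 19, 8 were non-EA-HFSC-only, beside 12.4% of all non-LC-HFSC-only genes. H3K27me3 of non-LC-HFSCs lay at 8 of the 21 GUB genes, a share close to that of the whole GUB list, with 79 of 221.

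The highest-scoring of these GUB genes were Cd34, S100a3, S100a4, Adcy1, Tgm5, Lhx2, Krt6a and Sardh. Tgm5, a transglutaminase gene, had 2509 bp in LC-HFSCs, 4711 bp in EA-HFSCs and 1048 bp in non-EA-HFSCs. Krt6a, a keratin of the inner bulge layer and of wounded epidermis, had 3874 bp in LC-HFSCs and 3323 bp in EA-HFSCs. The non-EA-HFSC peak there, of 594 bp with a score of 50.4, lay outside the LC-HFSC peak. Reads of Krt6b, a near-identical copy, cannot always be told apart from those of Krt6a. Sardh, which encodes sarcosine dehydrogenase, had 2837 bp, 3482 bp and 1678 bp in the same order as Tgm5. The single GUB gene of the other direction was Mgat4a, with 1873 bp in non-LC-HFSCs and a peak in both early anagen lists.

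The highest-scoring GDB genes were Rasa3, Il20ra, Serpinb2, Pkib, Ly6a, Elmod1, Figf and Defb1. Il20ra, a receptor subunit for cytokines of the interleukin 20 group, had 3694 bp in non-LC-HFSCs, 4893 bp in non-EA-HFSCs and 3064 bp in EA-HFSCs. Serpinb2, a protease inhibitor of keratinocytes, had 4404 bp, 4679 bp and 1716 bp in the same order. Figf, the gene of vascular endothelial growth factor D, and Defb1, a defensin gene, had peaks in the non-HFSC lists only, with 2791 and 3770 bp for Figf and 3059 and 2832 bp for Defb1. Among the 422 genes that the study listed as constantly expressed, 400 had a peak in both populations, 4 (0.948%) were non-LC-HFSC-only and 0 LC-HFSC-only. Of 225 genes listed as outside the skin lineage, 146 had a peak in neither, 17 (7.56%) were non-LC-HFSC-only and 5 (2.22%) LC-HFSC-only. Over all genes these shares were 3.57% and 0.809%.

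The cover around the gene start showed the same lists base by base. At 2000 bp after the start, 51.6% of GUB genes were covered by a peak in LC-HFSCs and 19.9% in non-LC-HFSCs, whereas at the start itself the shares were 85.1% and 72.4%. For GDB genes they were 38.4% and 55.6% at 2000 bp and 70.7% and 88.9% at the start. Over all protein-coding genes the shares were 14.4% and 12.1% at 2000 bp and 51.2% and 52.4% at the start. For both lists the largest gap lay within the gene, at 1600 bp for GUB genes (65.2% against 28.5%) and at 2100 bp for GDB genes (30.3% against 53.5%).

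**Figure D4:**
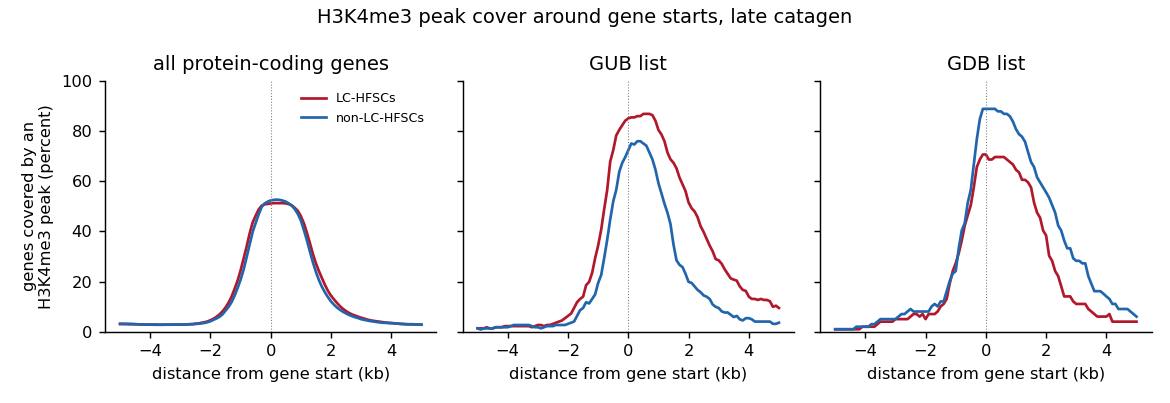
Percent of genes covered by an H3K4me3 peak at each distance from the gene start, in steps of 100 bp up to 5 kb, for LC-HFSCs and non-LC-HFSCs. The curves nearly coincide over all genes, the LC-HFSC curve lies above from the start onward in the GUB list with its largest gap at 1600 bp (65.2% against 28.5%), and the non-LC-HFSC curve lies above from the start onward in the GDB list.

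At genes with a peak in both populations, the width of the peak still differed by gene group. Over the 11871 such genes the summed width near the start was larger in LC-HFSCs at 71.5%, with a median ratio of 1.08, and it was at least 1.5 times as large in LC-HFSCs at 770 genes and in non-LC-HFSCs at 128. Among GUB genes it was larger in LC-HFSCs at 96.0% of 176, with a median ratio of 1.46, 82 genes past 1.5 times in that direction and 0 in the other. Among GDB genes it was larger in LC-HFSCs at 23.6% of 72, with a median ratio of 0.88, 1 gene past 1.5 times in LC-HFSCs and 6 in non-LC-HFSCs. The constantly expressed genes had a median ratio of 1.05.

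The bulge stem cell genes showed the contrast gene by gene. Their domains were wider in LC-HFSCs at 95.2% of the 21 genes with a peak in both, with a median ratio of 1.55 and 11 genes past 1.5 times. The members named here were chosen after their values were seen. Sox9, a transcription factor that bulge cells need, had 8369 bp in LC-HFSCs and 5203 bp in non-LC-HFSCs. Nfatc1, which holds bulge cells in quiescence, had 9936 and 6417 bp, and Tbx1, a T-box factor of the same cells, had 11939 and 5545 bp. Lgr5, a receptor for R-spondins, had 6119 and 2668 bp, the secreted Wnt modulators Dkk3 and Sfrp1 had 5309 and 1661 bp and 5909 and 2819 bp, and Bmp6, a ligand of quiescence, had 3510 and 1130 bp. Krt15, Id2 and Col17a1 stood at the other end, with ratios of 1.01, 0.99 and 1.09. In early anagen the ratio of EA-HFSC to non-EA-HFSC width over the same 21 genes had a median of 1.43, and 19 of the 20 that were wider in LC-HFSCs were also wider in EA-HFSCs. Over the 11836 genes with a peak in all 4 lists the early anagen median was 1.17. Of these, 8463 were wider in LC-HFSCs, and 7216 of the 8463 were also wider in EA-HFSCs, so such recurrence was common among all genes.

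The epidermal genes with a peak in both had a median ratio of 0.96 and were wider in LC-HFSCs at 31.8% of 22. Of the members chosen after their values were seen, Lrig1, which restrains division of upper follicle stem cells, had 7110 bp in LC-HFSCs and 10166 bp in non-LC-HFSCs. Klf5, a basal layer factor, had 6863 and 9016 bp, and the R-spondin receptor gene Lgr6 had 3178 and 4453 bp. Krt5, Klf4 and Grhl3 had ratios of 1.02, 1.00 and 1.00.

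Hox genes with a peak in both had a median ratio of 1.60, wider in LC-HFSCs at 94.4% of 18. However, 6 further Hox genes were non-LC-HFSC-only (15.0%, 7.06 to 29.1, beside 3.57% of all genes). The 2 genes Hoxd3 and Hoxd8 were LC-HFSC-only (5.00%, 1.38 to 16.5, beside 0.809% of all genes). The 25745-bp LC-HFSC peak over the Hoxa cluster stood at Hoxa3, Hoxa5, Hoxa6 and Hoxa7 alike, against 14531, 5563, 6656 and 11270 bp in non-LC-HFSCs, so these values are not independent. A peak was counted at its full width at every gene it reached. Over the span of this peak non-LC-HFSCs had 5 peaks summing to 23489 bp, so the ratios at these genes depend on how the peaks were split. Of the 40 annotated Hox entries, in which Hoxa3 stands under 2 identifiers, 14 had a peak in neither population.

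Signalling pathways were present in both populations with a few members on 1 side. Of 52 Wnt pathway genes, 38 had a peak in both, 9 in neither, 0 in LC-HFSCs only and 5 in non-LC-HFSCs only (9.62%, 4.18 to 20.6, beside 3.57% of all genes). The last were the ligand genes Wnt10b (2815 bp), Wnt2 (2813 bp) and Wnt9a (2116 bp) and the genes of the inhibitors Notum (1518 bp) and Sfrp2 (1672 bp), and each of them had a peak in both early anagen lists. Of 39 genes of the BMP and TGF-β pathway, 35 had a peak in both and 2, the ligand gene Bmp3 (4147 bp) and the receptor gene Bmpr1b (1836 bp), were non-LC-HFSC-only, a share of 5.13% (1.42 to 16.9) that was near the 3.57% of all genes. Among the 35, chosen after their values were seen, Gdf10 had 3680 bp in LC-HFSCs and 1128 bp in non-LC-HFSCs, the inhibitory Smad6 had 7727 and 2894 bp, and Tgfb3 had 1773 and 2913 bp. Of 20 FGF pathway genes, 14 had a peak in both and Fgf5, which ends anagen, was non-LC-HFSC-only with 925 bp, again a share near that of all genes.

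Of 18 genes of the hair matrix and shaft, 12 had a peak in both. Wnt10b alone was one-sided, in non-LC-HFSCs (5.56%, 0.988 to 25.8, beside 3.57% of all genes). The widths of Shh and Lef1, chosen after their values were seen, were 3210 bp in LC-HFSCs against 848 bp and 7579 bp against 2704 bp. Of 46 genes of integrins, laminins and collagens, 34 had a peak in both. Col6a2 (2437 bp), Col1a2 and the pair Col4a3 and Col4a4, which share a promoter and 1 peak of 1831 bp, were LC-HFSC-only. Their share was 8.70% (3.43 to 20.3), beside 0.809% of all genes. Col5a1 (1935 bp) was non-LC-HFSC-only, a share of 2.17% (0.385 to 11.3) beside 3.57% of all genes. The median ratio of the 34 was 1.27.

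No cell cycle gene was one-sided. Of 38, 36 had a peak in both populations, 2 in neither and 0 on 1 side (0 to 9.18 in each direction). All 18 AP-1 and immediate early genes had a peak in both. Over all genes 0.809% were LC-HFSC-only and 3.57% non-LC-HFSC-only, so 0 in lists of this size is near those shares. The median width ratios of the 2 lists were 0.99 and 1.02. The 3 lowest ratios within the cell cycle list were named after their values were seen. Ccnb1, the gene of cyclin B1, had 1705 bp in LC-HFSCs and 3295 bp in non-LC-HFSCs, the proliferation marker Mki67 had 2784 and 4189 bp, and Ccnb2 had 1706 and 2529 bp. In early anagen the ratios at these 3 genes were 1.05, 0.74 and 0.94. In late catagen 16 of the 36 genes were wider in LC-HFSCs and 20 in non-LC-HFSCs. Other division genes, also named after their values were seen, lay on both sides of 1. The ratio was 0.73 at Aurka, 0.75 at Cdk1, 0.97 at Plk1 and 1.22 at Top2a, and the G1 kinase gene Cdk4 was at 0.72.

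**Figure D5:**
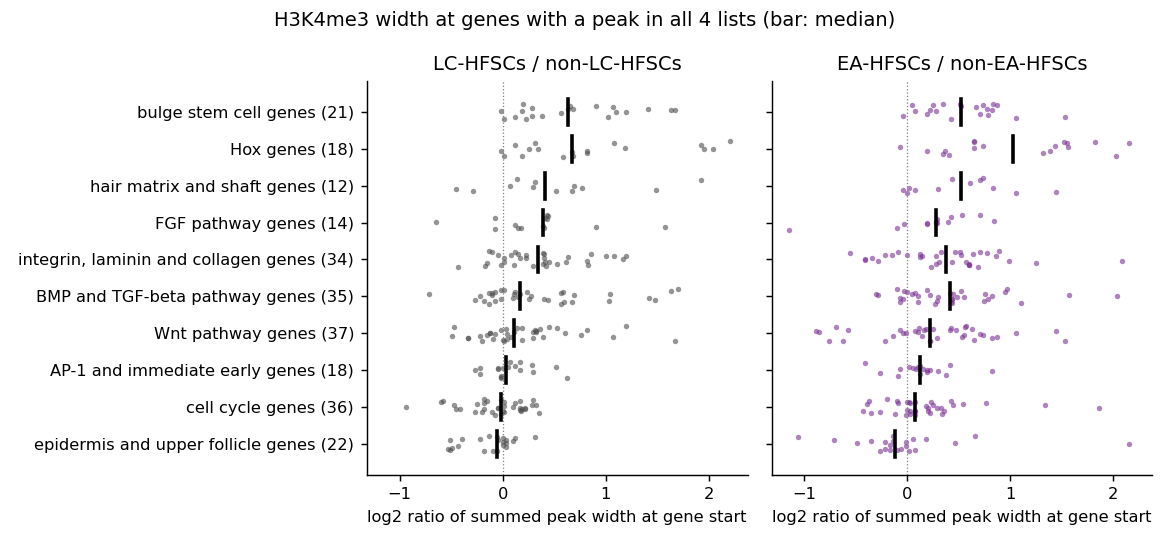
Log2 ratio of the summed H3K4me3 peak width at the gene start, LC-HFSCs to non-LC-HFSCs (left) and EA-HFSCs to non-EA-HFSCs (right), for the members of 10 gene lists with a peak in all 4 lists; points are genes, bars are medians and numbers beside the names are genes. The bulge and Hox lists lie to the right of 0 at both stages, with median ratios of 1.55 and 1.60 in late catagen, and the median of the epidermal list lies just under 0, with ratios of 0.96 and 0.92.

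The largest differences in width at genes with a peak in both were found, for LC-HFSCs, at the Hoxa genes, Tbx1, Krt80 and Gm17379. At the Hoxa genes they depend on how the peaks were split, as given above. Krt80, an epithelial keratin gene, had 9802 bp in LC-HFSCs and 3417 bp in non-LC-HFSCs, with 10187 and 5116 bp in the early anagen lists. The largest for non-LC-HFSCs were at Sox6, Lrp4, Celsr1, Ldb1 with its neighbour Pprc1, 6430598A04Rik and the histone gene pair Hist1h2ae and Hist1h2bg. Sox6 had 4180 bp in LC-HFSCs and 10240 bp in non-LC-HFSCs, with 3658 and 11289 bp in early anagen. Lrp4, a co-receptor that modulates Wnt and BMP signals, had 3392 and 7196 bp, and Celsr1, a gene of planar cell polarity, had 3255 and 7024 bp. In early anagen the order turned at 3 of these loci. Ldb1 and Pprc1 had 6040 and 9658 bp in late catagen and 11080 and 5803 bp in EA-HFSCs and non-EA-HFSCs. The values at 6430598A04Rik were 2508 and 6102 bp and then 10366 and 1960 bp, and those at Gm17379 were 7612 and 1443 bp and then 6131 and 7928 bp.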

How the data were processed

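ChIP-seq reads were trimmed (Trimmomatic 0.22), aligned to mm9 with Bowtie2 and, per the paper's methods, pooled over independent experiments and called by MACS 1.4, with IgG of the matching population as the control. The submitters' notes also name HOMER and Cuffdiff. The deposited lists give the coordinates of a peak and a score, the −log10 p-value multiplied by 10. No H3K4me3 score fell under 50.0, a p-value of 1e-05. Depth is not part of the lists.

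Overlaps, widths, positions and base composition were computed in Python 3.11.15 with numpy 2.4.6, pandas 2.3.3 and scipy 1.17.1. On simulated data the overlap step recovered 4 of 4 settings with 20000 query peaks and the same counts from bedtools 2.31.1. Genes were the 22367 protein-coding genes of GENCODE vM1 on NCBIM37, the assembly of mm9. Symbols missing there were matched through RefSeq synonyms (GRCm38.p6, names only). Shares have 95% Wilson intervals. Peaks on unplaced sequence entered overlaps and no step that needs genes.

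Genes were named by a rule: in each direction the 12 one-sided genes with the highest score, the one-sided members of the gene lists, the 8 highest-scoring one-sided GUB and GDB genes, the 5 highest-scoring one-sided peaks more than 3000 bp from a gene start, the 8 genes with the largest difference in width and the 4 widest peaks of each list. Other names are marked as chosen after their values were seen. The members and gene lists were chosen with earlier results of these data known.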

Additional observations from a re-analysis of the deposited data

Results flagged for a closer look

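Of the 181 LC-HFSC-only genes, 2 had the opposite call in early anagen, a peak in non-EA-HFSCs and none in EA-HFSCs. These were Dnase1l3 and Dgcr6, with LC-HFSC peaks of 752 and 1041 bp both under the 10th percentile of their list by score. Of the 798 non-LC-HFSC-only genes, 27 had the opposite call, a peak in EA-HFSCs and none in non-EA-HFSCs. The 27 included Tbx2 with a peak of 615 bp and Ebf4 with 1221 bp in non-LC-HFSCs, named after their values were seen, and Gm7120 with 7612 bp. With 1 list per population, the difference between the stages was not tested.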

How the results depend on the processing

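The numbers, overlaps, covered lengths, widths and promoter shares of peaks and the counts of one-sided genes were recomputed on peaks scoring 100 or more, on equally many top-scoring peaks per list, with peaks under 1000 bp apart merged and on the 19 autosomes, and where they apply with an overlap of 50%, windows of 2500 and 1000 bp, any transcript start, or any base in the promoter. The GUB, GDB and early anagen results were not recomputed with merging or on autosomes, and motifs, CpG content, H3K27me3 shares, cover, widths by gene list and the other gene lists were not recomputed. With equal numbers of top-scoring peaks the ratio of peak numbers was 1.00, the overlapped shares 89.0% in LC-HFSCs and 90.2% in non-LC-HFSCs, the ratio of covered length 1.12, the ratio of median width 1.11, the promoter share of non-LC-HFSCs 35.1%, the one-sided genes 452 for LC-HFSCs and 412 for non-LC-HFSCs, the LC-HFSC-only GUB genes 37, and the shares of one-sided genes with the same gate in early anagen 52.0% and 20.9%. The order of the one-sided gene counts was thus turned; this setting leaves out the weakest non-LC-HFSC peaks by construction. On peaks scoring 100 or more the LC-HFSC overlap was 97.5%, the ratio of covered length 0.951, against 1.01, the ratio of median width 1.23, the median ratio at paired loci 1.08, the promoter shares 38.1% and 34.1%, the non-LC-HFSC-only genes 1323, the non-LC-HFSC-only GDB genes 31 and the non-EA-HFSC-only share 7.48%; the cause was not tested. Merging gave 0.805 for peak numbers, 76.7% for the non-LC-HFSC overlap, 0.999 for covered length, 1.23 for median width and 30.5% for the non-LC-HFSC promoter share. The autosomes gave 1.00 for covered length, so the direction of that ratio is not settled. The 50% overlap gave 92.5% for LC-HFSCs. Counting any base in the promoter gave 77.7% and 64.8%. The window and transcript-start settings, and a peak without any partner, chosen after seeing the data, kept the gene counts within 1.5 times. No paired analysis was possible because each population has 1 list, and for the same reason no replicate could be left out. Depth is unknown from the lists, and the paper places the LC-HFSC reads at the upper end of its range for samples other than IgG. A weaker mark and other reasons for a peak missing from the LC-HFSC list, whose scores were lower, cannot be told apart here. The part of read depth, in the mark or in IgG, was not tested.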
